A study of Mus musculus with 8 samples.

Results

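Atf4, Atf5, Ddit3, Trib3, Chac1, Asns, Gpt2, Slc7a5, Slc3a2 and Slc7a11 belong to, or are controlled by, the ATF4 branch of the integrated stress response, and their transcript levels were followed across 8 mouse embryonic stem cell libraries. The 10 genes were picked by symbol from the 49641 gene entries of the deposited table, and each symbol matched 1 entry. The study set the miR-290 microRNA family against the muscleblind-like splicing regulators. Its 4 groups of 2 libraries were wild-type (WT) cells, Dgcr8 knockout (KO) cells, Dgcr8 KO cells given miR-294 at 50 nM, and Dgcr8 KO cells given siRNAs against Mbnl1 and Mbnl2 (siMbnl1/2) at 50 nM, with transfection 16 hours after plating. All samples are labelled as V6.5 cells of the 129/C57BL/6 background, grown in serum and LIF on gelatin or feeder fibroblasts, in a medium with added nonessential amino acids and 2-mercaptoethanol. Dgcr8 is needed to process canonical microRNAs, and the deletion is carried by the last 3 groups alike. WT and Dgcr8 KO libraries are mock transfections in the column names, which call the first V65 and the second ES1, so the genotype and a difference between lines cannot be told apart. No control mimic or control siRNA was among the samples analysed here, so the effect of transfecting any small RNA cannot be told apart from that of miR-294 or siMbnl1/2.

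In the integrated stress response, kinases that sense amino acid shortage, misfolded protein, double-stranded RNA or heme deficit phosphorylate the initiation factor eIF2, which slows general translation and favours translation of the Atf4 message. The ATF4 protein is a basic leucine zipper factor that switches on genes for amino acid synthesis and import, and in longer stress also the factor CHOP, encoded by Ddit3. ATF4 is controlled largely at the level of translation, so its transcript does not measure its protein or its activity.

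The microRNA put back into the knockout cells is shown because its seed, bases 2 to 8 in capitals, sets which messages it can pair with. The series labels do not say which arm the mimic carried, and the 3p arm is the one usually described for this family. The sequence is from RefSeq (GRCm38.p6, chr7:3220691-3220712, plus strand).
mmu-miR-294-3p: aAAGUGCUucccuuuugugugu
A 7-base match to this seed, AGCACTT, was absent from the longest annotated 3' untranslated region of 9 of the 10 genes. Slc7a11, with 7364 bases of such sequence, held 2 matches. Among the tested genes with an annotated region, 17.6% of 11284 held at least 1, with a median length of 1138 bases against 788 for the 10 genes.

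Levels are FPKM, sequenced fragments corrected for transcript length and library total, so each is relative to all other transcripts. In bulk RNA, fewer cells of a type and less RNA per cell cannot be told apart. Between 12386 and 12860 genes per library reached 1 FPKM, and read depth is unknown. Dgcr8 was at 21.9 to 22.9 FPKM in WT and 6.58 to 8.50 in the other 6 libraries. Mbnl2 was at 24.7 and 28.6 in Dgcr8 KO and 11.2 and 14.3 with siMbnl1/2, whereas Mbnl1 was at 8.003 and 9.42 against 6.84 and 6.76, which was not called (adjusted p = 0.158). With miR-294 both messages were also lower than in Dgcr8 KO, Mbnl2 at 13.2 and 14.4 and Mbnl1 at 5.17 and 4.92. Low Mbnl1 and Mbnl2 therefore did not set the siMbnl1/2 group apart from the miR-294 group. All 10 pluripotency markers were above 1 FPKM in every group, summing to 5752 to 7571 per library. Of 12 fibroblast markers 2, Thy1 and Loxl1, had a mean of at least 1 FPKM in each group. The sum over all 12 was 5.43 to 7.80 with overlapping ranges in the 4 groups, and Postn, Lum and Dcn were at or near 0. Col1a1 was at 0.4998 and 0.307 FPKM in WT against 0.062 to 0.215 in the other 6 libraries. Col1a2 was at 0.246 and 0.4999 in WT against 0 to 0.0275. For Col3a1, Col6a3, Pdgfrb, Fbn1 and S100a4 the WT libraries did not both stand above all others. Whether feeder cells contributed to the WT libraries was not tested. Replicate libraries differed more in Dgcr8 KO (median SD of 0.102 on the log2 scale) and siMbnl1/2 (0.121) than in WT (0.0462) and miR-294 (0.0487).

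Without Dgcr8 the Atf4 message, its feedback inhibitor Trib3, the glutathione-degrading enzyme Chac1, asparagine synthetase and both subunits of the large neutral amino acid transporter fell, while Atf5 and the alanine aminotransferase Gpt2 rose. Differences are of mean log2(FPKM + 1) between groups, tested by limma over the 12786 genes whose mean reached 1 FPKM, and a gene was called where its p, adjusted by Benjamini-Hochberg, was under 0.05. Of the 10 genes 9 were tested, all but Slc7a11, and in Dgcr8 KO against WT 6 were lower and 2 higher. Over all genes tested, 59.8% were called in this comparison, 30.1% lower and 29.6% higher. The median difference was -0.70 over the 9 genes and 0.00 over all genes tested, which are not matched to the 9 in level. FPKM summed to 571508 and 564280 in WT and to 502310 and 473746 in Dgcr8 KO. With quantile normalization the falls of Atf4 (-0.40), Asns (-0.58), Slc3a2 (-0.69) and Slc7a5 (-0.99) were smaller and still called. Trib3 was then at -0.67, whereas Chac1 (-0.81), Atf5 (0.53) and Gpt2 (1.22) moved further from 0.

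After miR-294 was put back, 8 of the 9 tested genes rose against Dgcr8 KO and Gpt2 did not pass the test. The background share was 52.2% called, 22.9% higher and 29.2% lower. This comparison and that of Dgcr8 KO with WT share the 2 Dgcr8 KO libraries, so a value of theirs that is high or low by chance enters both with opposite signs, and an opposite direction in the 2 comparisons is not independent evidence for any gene or list. The median difference was 0.68 over the 9 genes and -0.06 over all genes tested. With siMbnl1/2, 2 of the 9, Atf5 and Gpt2, fell against Dgcr8 KO and none rose, while 1.11% of all genes were called, 0.242% lower and 0.868% higher. The 9 differences lay between -0.75 and -0.04, with a median of -0.27, against 0.04 over all genes tested. Between the 2 transfected groups, all 9 tested genes were lower with siMbnl1/2 than with miR-294, by 0.72 to 1.97, where 54.0% of all genes were called, 21.0% lower and 33.0% higher. This comparison shares its miR-294 and its siMbnl1/2 libraries with those against Dgcr8 KO, and the median of all genes stood at 0.10 in it. Quantile normalization moved that median to -0.02, and the 9 differences were then -2.14 to -0.52, all called.

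**Figure D1:**
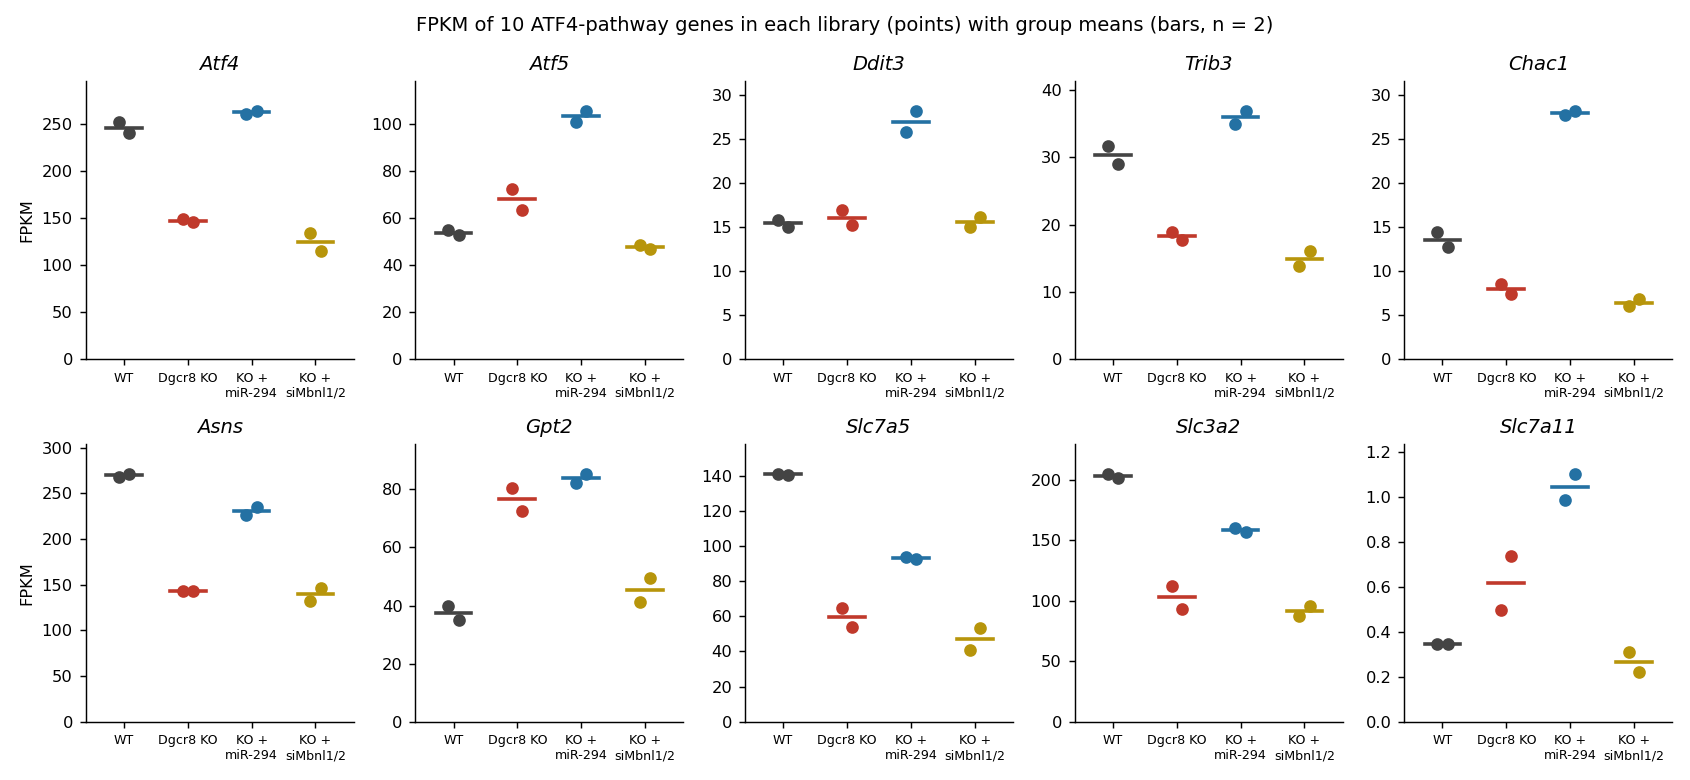
FPKM (vertical axes, linear from 0, each gene on its own scale) of the 10 genes in WT, Dgcr8 KO, and Dgcr8 KO cells with miR-294 or siMbnl1/2; points are libraries and bars are means of 2. The miR-294 points lie well above the Dgcr8 KO points for Atf4 (261 and 264 against 149 and 146). For Gpt2 they lie just above them (82.3 and 85.5 against 80.5 and 72.6), a difference that was not called. Slc7a11 (0.986 and 1.10 against 0.498 and 0.738) was not tested.

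Atf4 (ENSMUSG00000042406.7; mm10 chromosome 15, 80255184 to 80257540, plus strand), the transcription factor that leads the response, was at 252 and 240.4 FPKM in WT, 149 and 146 in Dgcr8 KO, 261 and 264 with miR-294, and 134 and 115 with siMbnl1/2. WT and miR-294 libraries were high, Dgcr8 KO and siMbnl1/2 libraries low, and the high and low groups did not overlap. Its mean over the 8 libraries exceeded that of 97.3% of the genes tested, a share that was also 97.3% for Asns and fell through 95.8% for Slc3a2 and 92.6% for Slc7a5 to 56.8% for Chac1. The message fell by 0.74 ± 0.08 (SE) on the log2 scale in Dgcr8 KO (adjusted p = 1.50e-04, n = 2 libraries per group, limma) and rose by 0.83 ± 0.08 with miR-294 (adjusted p = 1.66e-04). With quantile normalization these differences were -0.40 and 0.51, both still called. From miR-294 to WT the difference was 0.09, with a 95% interval of -0.09 to 0.27 (adjusted p = 0.416). Against Dgcr8 KO, siMbnl1/2 gave -0.24 ± 0.08 (95% interval -0.42 to -0.06, adjusted p = 0.160). All intervals here use a spread per gene shared by the 4 groups. Dgcr8 KO and siMbnl1/2 replicates scattered more than the others, so intervals for this comparison may be too narrow. With its own libraries alone the adjusted p by limma was 0.571 for Atf4, 0.566 for Trib3, 0.618 for Chac1 and 0.585 for Slc7a5.

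Atf5 (ENSMUSG00000038539.15; chromosome 7, 44812256 to 44816658, minus strand), a related leucine zipper factor tied to the mitochondrial stress response, was at 54.7 and 52.8 FPKM in WT, 72.5 and 63.3 in Dgcr8 KO, 100.9 and 106 with miR-294, and 48.7 and 46.7 with siMbnl1/2. The miR-294 libraries were highest and the Dgcr8 KO libraries next, above WT, which is the opposite side from Atf4. Atf5 rose by 0.33 ± 0.08 in Dgcr8 KO (adjusted p = 0.00841), a call lost without WT replicate 2 (0.30, adjusted p = 0.0617) and 0.53 with quantile normalization. With miR-294 it rose further, by 0.60 ± 0.08 (adjusted p = 6.84e-04), to a level above WT by 0.93 ± 0.08 (adjusted p = 3.17e-04). With siMbnl1/2 it fell by 0.50 ± 0.08 against Dgcr8 KO (adjusted p = 0.0390), to a level that did not pass the test against WT (-0.17, 95% interval -0.35 to 0.02, adjusted p = 0.0992). That difference passed with median-of-ratios scaling (-0.22, adjusted p = 0.0300) and without either Dgcr8 KO library (adjusted p = 0.0422 or 0.0423). The annotated span overlaps the opposite-strand gene Nup62 (82 FPKM on average) over 571 bases. The libraries were made by a dUTP protocol, which keeps strand, but whether counting used it is not given in the sources used here.

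Ddit3 (ENSMUSG00000025408.15; chromosome 10, 127290774 to 127296288, plus strand), which encodes CHOP, a factor of prolonged stress and cell death, was at 15.8 and 15.1 FPKM in WT, 16.9 and 15.3 in Dgcr8 KO, 25.8 and 28.2 with miR-294, and 15.1 and 16.1 with siMbnl1/2. The miR-294 libraries stood above the other 6, whose values overlapped. Against Dgcr8 KO the message rose by 0.71 ± 0.09 (adjusted p = 4.66e-04), and against WT it was higher by 0.77 ± 0.09 (adjusted p = 0.00102). Dgcr8 KO minus WT was 0.05, with a 95% interval of -0.15 to 0.26 (adjusted p = 0.609), and siMbnl1/2 minus Dgcr8 KO was -0.04, from -0.24 to 0.16 (adjusted p = 0.847). Its span overlaps the opposite-strand methionyl-tRNA synthetase gene Mars over 68 bases.

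Trib3 (ENSMUSG00000032715.9; chromosome 2, 152337422 to 152344032, minus strand), a pseudokinase that ATF4 and CHOP induce and that damps them in turn, was at 31.7 and 29.03 FPKM in WT, 18.9 and 17.6 in Dgcr8 KO, 35.0 and 36.9 with miR-294, and 13.8 and 16.0 with siMbnl1/2. The 4 groups did not overlap. Trib3 fell by 0.70 ± 0.09 in Dgcr8 KO (adjusted p = 4.70e-04) and rose by 0.94 ± 0.09 with miR-294 (adjusted p = 2.09e-04). The miR-294 group was above WT by 0.24, with a 95% interval of 0.02 to 0.46, which did not pass (adjusted p = 0.0967). It did pass with median-of-ratios scaling (0.30), quantile normalization, group weights, the 4 libraries alone, or without either siMbnl1/2 library, at an adjusted p of 0.0100 to 0.0426. siMbnl1/2 minus Dgcr8 KO was -0.28 (95% interval -0.49 to -0.06, adjusted p = 0.172).

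Chac1 (ENSMUSG00000027313.3; chromosome 2, 119351229 to 119354381, plus strand), an enzyme that breaks down glutathione and a target of ATF4 and CHOP, was at 14.4 and 12.7 FPKM in WT, 8.55 and 7.37 in Dgcr8 KO, 27.7 and 28.2 with miR-294, and 6.01 and 6.79 with siMbnl1/2. The groups did not overlap, and the miR-294 libraries were about as far above WT as WT was above siMbnl1/2 on the log2 scale. Chac1 fell by 0.70 ± 0.10 in Dgcr8 KO (adjusted p = 7.95e-04). With miR-294 it rose by 1.69 ± 0.10 (adjusted p = 4.78e-05), the largest of the 9 differences in that comparison, and passed the WT level by 0.99 ± 0.10 (adjusted p = 7.37e-04). siMbnl1/2 minus Dgcr8 KO was -0.27 (95% interval -0.52 to -0.03, adjusted p = 0.212).

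**Figure D2:**
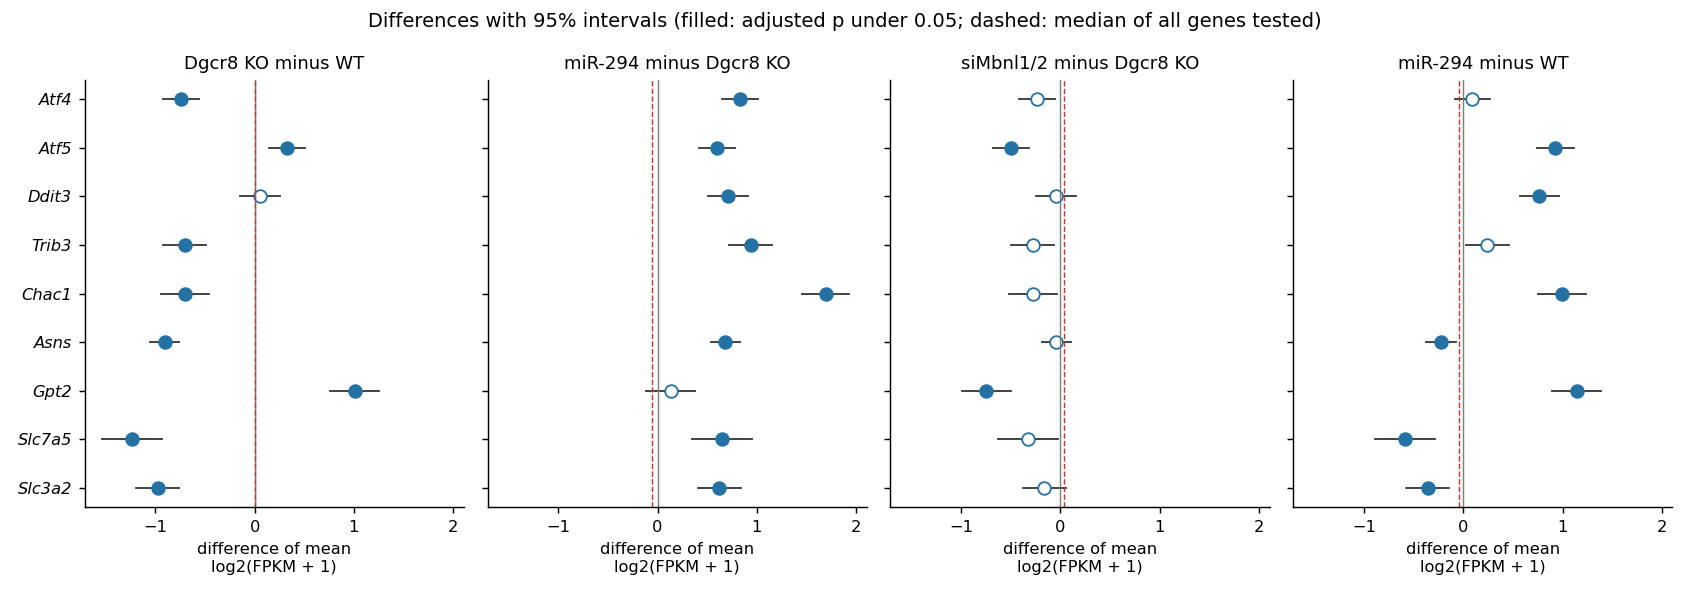
Differences of mean log2(FPKM + 1) (horizontal axes) for the 9 tested genes in 4 comparisons, with 95% intervals from limma; filled points have an adjusted p under 0.05 and the dashed line is the median of all genes tested. Chac1 lies farthest right for miR-294 minus Dgcr8 KO at 1.69, and for siMbnl1/2 minus Dgcr8 KO only Atf5 and Gpt2 are filled.

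Asns (ENSMUSG00000029752.12; chromosome 6, 7675169 to 7693254, minus strand), which makes asparagine from aspartate and glutamine, was at 268 and 272 FPKM in WT, 143 and 143 in Dgcr8 KO, 227 and 234 with miR-294, and 133 and 146 with siMbnl1/2. WT was highest and miR-294 next, and the Dgcr8 KO and siMbnl1/2 libraries overlapped at the low end. Asns fell by 0.91 ± 0.06 in Dgcr8 KO (adjusted p = 2.80e-05) and rose by 0.68 ± 0.06 with miR-294 (adjusted p = 1.66e-04), or -0.58 and 0.43 with quantile normalization. It remained below WT by a difference of -0.22 ± 0.06 (adjusted p = 0.0368). That last call was lost without any 1 of the 4 WT and miR-294 libraries, without a filter, with either other scaling and with the replicate block, with an adjusted p of up to 0.213. siMbnl1/2 minus Dgcr8 KO was -0.04 (95% interval -0.19 to 0.11, adjusted p = 0.793).

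Gpt2 (ENSMUSG00000031700.11; chromosome 8, 85492576 to 85527560, plus strand), the mitochondrial enzyme that links alanine and pyruvate to glutamate and 2-oxoglutarate, was at 39.9 and 35.1 FPKM in WT, 80.5 and 72.6 in Dgcr8 KO, 82.3 and 85.5 with miR-294, and 41.3 and 49.4 with siMbnl1/2. Dgcr8 KO and miR-294 libraries were high and WT and siMbnl1/2 libraries low, a split without overlap that Atf5 and Slc7a11 showed as well. Gpt2 rose by 1.01 ± 0.11 in Dgcr8 KO (adjusted p = 1.55e-04). The difference of miR-294 from Dgcr8 KO was 0.13, with a 95% interval of -0.12 to 0.38 (adjusted p = 0.331), and from WT 1.14 ± 0.11 (adjusted p = 4.75e-04). With siMbnl1/2 it fell by 0.75 ± 0.11 against Dgcr8 KO (adjusted p = 0.0314). From WT the siMbnl1/2 group differed by 0.26 (95% interval 0.02 to 0.51, adjusted p = 0.0628), which passed with quantile normalization (0.35, adjusted p = 0.0153) and without siMbnl1/2 replicate 1 (0.39, adjusted p = 0.0147).

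The falls of Atf5 and Gpt2 with siMbnl1/2 held less well than the other calls. Neither passed without a filter on low values, with the replicate number as a block (adjusted p = 0.0875 for both), with libraries weighted by group, or with the 4 libraries of the comparison alone. Leaving out either library of WT, of Dgcr8 KO or of miR-294 also ended both calls, and leaving out siMbnl1/2 replicate 1 ended that of Atf5 (adjusted p = 0.0530). Over the 15 alternatives the adjusted p reached 0.303 for Atf5 and 0.180 for Gpt2, while the differences stayed between -0.59 and -0.40 and between -0.87 and -0.62. Without siMbnl1/2 replicate 2 both passed, together with Slc7a5 (-0.52, adjusted p = 0.0444).

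Slc7a5 (ENSMUSG00000040010.10; chromosome 8, 121881150 to 121907694, minus strand), the light chain LAT1 that carries leucine and other large neutral amino acids, was at 141 and 140.3 FPKM in WT, 64.7 and 54.1 in Dgcr8 KO, 93.8 and 92.7 with miR-294, and 41.0 and 53.6 with siMbnl1/2. The groups did not overlap, and the miR-294 libraries lay between WT and Dgcr8 KO. It fell by 1.24 ± 0.13 in Dgcr8 KO (adjusted p = 1.53e-04) and rose by 0.65 ± 0.13 with miR-294 (adjusted p = 0.00456). The miR-294 group differed from WT by -0.59 ± 0.13 (adjusted p = 0.0151), a call lost without any 1 of the 4 libraries of those groups (adjusted p of 0.0775 to 0.0862). siMbnl1/2 minus Dgcr8 KO was -0.33 (95% interval -0.63 to -0.03, adjusted p = 0.233). The whole span lies within the opposite-strand entry Gm20388, which was at 6.88 FPKM on average.

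Slc3a2 (ENSMUSG00000010095.13; chromosome 19, 8706882 to 8723369, minus strand), the heavy chain CD98 that brings LAT1 and other light chains to the surface, was at 205 and 201 FPKM in WT, 113 and 93.4 in Dgcr8 KO, 159.8 and 157 with miR-294, and 87.6 and 95.6 with siMbnl1/2. As for its partner, WT was highest and miR-294 between, but Dgcr8 KO and siMbnl1/2 overlapped. It fell by 0.98 ± 0.09 in Dgcr8 KO (adjusted p = 9.47e-05) and rose by 0.62 ± 0.09 with miR-294 (adjusted p = 0.00122), or 0.40 with quantile normalization. The miR-294 group differed from WT by -0.36 ± 0.09 (adjusted p = 0.0273), which did not pass without a filter or without any 1 of the 4 libraries of those groups, with an adjusted p of up to 0.145. siMbnl1/2 minus Dgcr8 KO was -0.16 (95% interval -0.38 to 0.05, adjusted p = 0.411). Per length, heavy chain transcripts outnumbered light chain transcripts in all 8 libraries. The ratio of Slc3a2 to Slc7a5 was 1.45 and 1.43 in WT, 1.74 and 1.73 in Dgcr8 KO, 1.70 and 1.69 with miR-294, and 2.14 and 1.78 with siMbnl1/2. It was lowest in WT, and the light chain thus changed by more than the heavy chain between WT and the 3 groups without Dgcr8.

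Slc7a11 (ENSMUSG00000027737.10, chromosome 3, 49892526 to 50443614, minus strand), the light chain xCT that exchanges cystine for glutamate and pairs with the same heavy chain, averaged below 1 FPKM. Read depth is unknown, so how near this lies to the limit of detection is not known. Slc7a11 was at 0.345 and 0.346 FPKM in WT, 0.498 and 0.738 in Dgcr8 KO, 0.986 and 1.10 with miR-294, and 0.311 and 0.221 with siMbnl1/2. The order of the groups was that of Atf5, with miR-294 above Dgcr8 KO, WT and siMbnl1/2. Its mean of 0.569 FPKM kept it out of the test. Without the filter, miR-294 against WT (0.60, adjusted p = 0.0170) and siMbnl1/2 against miR-294 (-0.69, adjusted p = 0.00433) passed, and miR-294 against Dgcr8 KO did not (0.34, adjusted p = 0.0581).

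Set against WT, the knockout cells with miR-294 had 4 of the 9 genes higher (Atf5, Ddit3, Chac1 and Gpt2) and 3 lower (Asns, Slc7a5 and Slc3a2), with Atf4 and Trib3 not called. In this comparison 26.5% of all genes were called, 11.8% higher and 14.7% lower. The 4 higher calls held under each of the 15 alternatives run, and the 3 lower calls did not. With siMbnl1/2, 6 of the 9 were lower than in WT and none higher, while 60.5% of all genes were called, 27.7% lower and 32.8% higher, and each of the 6 held under all 15. The 3 not called were Atf5, Ddit3 and Gpt2.

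**Figure D3:**
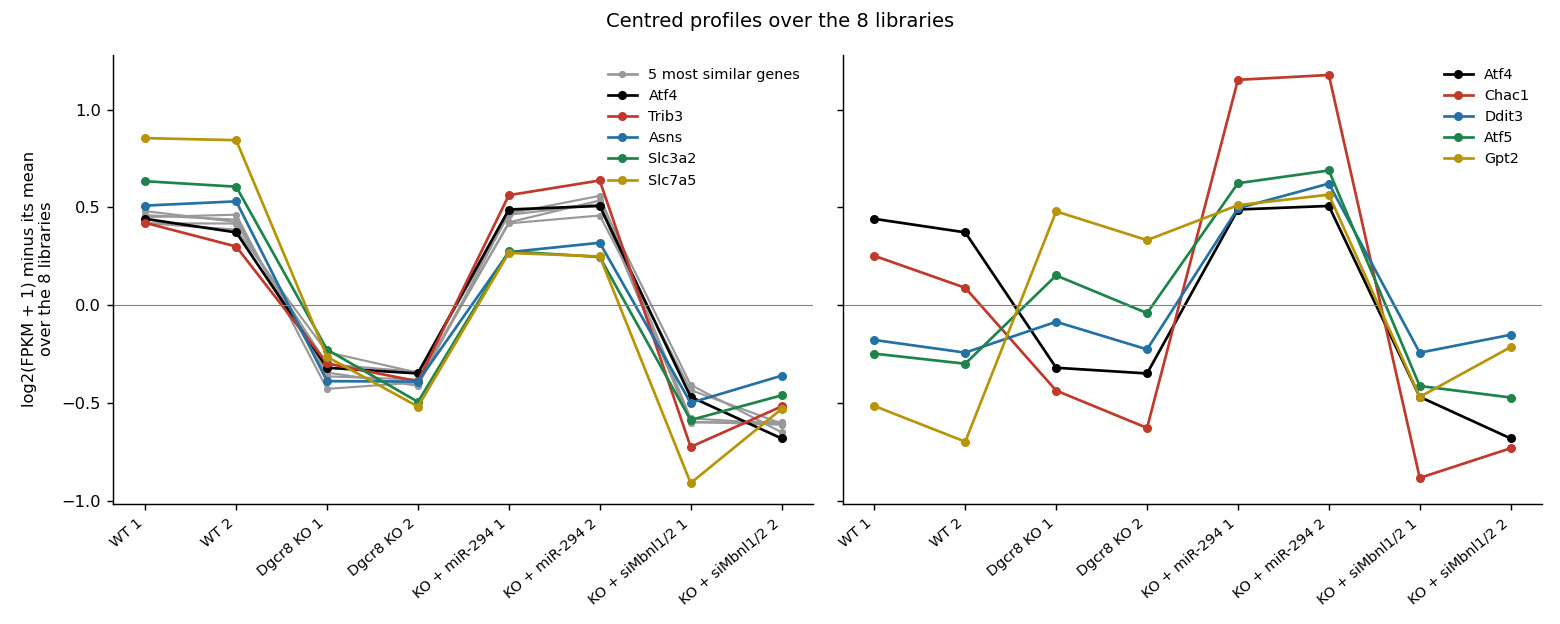
Log2(FPKM + 1) of each gene minus its mean over the 8 libraries (vertical axis) by library (horizontal axis). Left, Atf4 with Trib3, Asns, Slc3a2 and Slc7a5 and the 5 genes most like Atf4 (grey); right, Atf4 with Chac1, Ddit3, Atf5 and Gpt2, of which the last lies on the other side of 0 from Atf4 in WT and Dgcr8 KO.

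Likeness to Atf4 was measured as the root mean square difference between profiles of log2(FPKM + 1), each centred on its mean over the 8 libraries. Trib3 was the closest of the 8 other tested genes, at 0.123, with 72 of the 12785 other genes tested closer to Atf4 than it. Asns followed at 0.167, Slc3a2 at 0.193 and Slc7a5 at 0.307, then Ddit3 at 0.383, Chac1 at 0.398 and Atf5 at 0.409, with Gpt2 farthest at 0.650. Among the 12785 other genes, Asns ranked 270, Slc3a2 437 and Slc7a5 1829 in closeness to Atf4. Ddit3 ranked 3177, Chac1 3472, Atf5 3713 and Gpt2 8526, so many genes outside the 10 were closer than these. Outside the 10, the 5 most similar genes were Ybx3 (0.0523), a cold-shock domain RNA-binding protein, Zfp518b (0.0585), Mthfd2 (0.0601), a mitochondrial folate enzyme and known ATF4 target, Gprasp2 (0.0608) and Fubp3 (0.0630), an RNA-binding protein. Mthfd2 was at 104 and 102 FPKM in WT, 65.6 and 61.0 in Dgcr8 KO, 107 and 111 with miR-294, and 51.1 and 50.5 with siMbnl1/2. Like Atf4, it was high in WT and with miR-294 and low in the other 4 libraries. It was picked for its likeness to Atf4 over these same libraries, so the shared pattern is not separate evidence.

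Transcript ratios to Atf4 showed which genes departed from it. Trib3 held 0.121 to 0.127 of the Atf4 value in WT and Dgcr8 KO, 0.134 and 0.140 with miR-294, and 0.103 and 0.139 with siMbnl1/2. Chac1 held 0.0506 to 0.0576 in WT and Dgcr8 KO, 0.106 and 0.107 with miR-294, and 0.0449 and 0.0588 with siMbnl1/2, so that the miR-294 libraries stood apart. Atf5 held 0.217 and 0.220 in WT, below the 0.364 to 0.488 of the 6 libraries without Dgcr8.

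ATF4 acts through C/EBP-ATF response elements, searched here as TGATGNAA on both strands (TTNCATCA on the other) in RefSeq windows from 250 bases before to 50 after each gene start (GRCm38.p6). Of the 10 genes 9 had a window, all but Slc7a5, and 4 of those held a match, namely Asns, Chac1, Trib3 and Slc7a11. Of all 32851 windows 3.97% held one, and of the 9251 tested genes with a window 2.65% did. These stretches are shown because they place the element in the synthetase, glutathione, pseudokinase and cystine transporter genes. They are written in the direction of each gene, with the matches in capitals. The positions are chr6:7693225-7693309 (minus strand) for Asns, chr2:119351002-119351102 (plus) for Chac1, chr3:50443623-50443723 (minus) for Slc7a11 and chr2:152344031-152344130 (minus) for Trib3.
Asns: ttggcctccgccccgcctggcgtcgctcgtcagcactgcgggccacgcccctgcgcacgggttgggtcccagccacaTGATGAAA
Chac1: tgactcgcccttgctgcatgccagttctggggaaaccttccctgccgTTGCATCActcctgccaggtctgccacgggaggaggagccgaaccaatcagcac
Slc7a11: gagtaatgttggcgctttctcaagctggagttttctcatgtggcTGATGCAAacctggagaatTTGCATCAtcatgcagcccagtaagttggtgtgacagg
Trib3: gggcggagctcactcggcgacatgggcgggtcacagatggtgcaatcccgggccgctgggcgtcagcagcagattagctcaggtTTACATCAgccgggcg
The match began 23 bases before the RefSeq start in Asns, 193 before it in Chac1, 66 and 47 before it in Slc7a11, and 14 after it in Trib3. The 5 without a match in this window were Atf4, Atf5, Ddit3, Gpt2 and Slc3a2.

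Upstream of Atf4, 11 eIF2 kinases and other genes that control eIF2 were tested. In Dgcr8 KO 2 were higher and 3 lower (18.2% and 27.3%, against 29.6% and 30.1% of all genes), and after miR-294 3 were higher and 2 lower (27.3% and 18.2%, against 22.9% and 29.2%), so that neither share stood far from that of all genes. Eif2ak2, the kinase PKR that senses double-stranded RNA, stood at 7.07 ± 0.509 FPKM (SD, n = 2) in WT, 14.6 ± 1.13 in Dgcr8 KO (difference 0.95 ± 0.11, SE, adjusted p = 2.15e-04) and 6.42 ± 0.0608 with miR-294 (-1.07 ± 0.11, adjusted p = 2.22e-04). It was thus high where Atf4 was low. Ppp1r15a (GADD34), the phosphatase subunit that reverses eIF2 phosphorylation and an ATF4 target, fell from 16.6 ± 0.398 to 9.16 ± 0.896 in Dgcr8 KO (-0.80). It was at 13.5 ± 0.642 with miR-294 and 13.2 ± 0.599 with siMbnl1/2, where Atf4 was lowest. From Dgcr8 KO the siMbnl1/2 group differed by 0.48, which did not pass (adjusted p = 0.0538, limma). Eif2s1, the eIF2 alpha subunit itself, rose by 0.61 with miR-294, from 52.5 ± 5.62 to 80.7 ± 1.504 FPKM (SD, n = 2). None of the 11 passed with siMbnl1/2 against Dgcr8 KO.

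Other published ATF4 targets, 40 genes of which 39 were tested, had 21 lower and 7 higher in Dgcr8 KO (median -0.26, against 0.00 for all genes). After miR-294, 27 were higher and 2 lower (median 0.52, against -0.06). These 21 and 27 are 53.8% and 69.2% of the list, against 30.1% of all genes lower in Dgcr8 KO and 22.9% higher with miR-294. Over the alternatives 14 to 23 were lower in Dgcr8 KO, the lowest with quantile normalization, and 4 to 11 were higher, with 4 without either WT library or without a filter and 11 without either siMbnl1/2 library. With miR-294, 21 to 29 were higher and 2 or 3 lower. Phgdh, the first enzyme of serine synthesis, fell by 1.21 ± 0.11 in Dgcr8 KO, from 137 ± 4.68 to 59.0 ± 8.69 FPKM. Psph, its last enzyme, rose by 1.23 ± 0.10 with miR-294, from 47.1 ± 6.05 to 111 ± 3.57. Gdf15, a secreted stress factor also induced by p53, went the other way, up by 0.97 in Dgcr8 KO and down by 1.01 with miR-294. With siMbnl1/2, 3, among them Phgdh (-0.66, adjusted p = 0.0470), were lower than in Dgcr8 KO and none higher. The 3 are 7.69% of the list, against 0.242% of all genes lower and 0.868% higher. That count fell to 0 without either WT library, without either miR-294 library, without Dgcr8 KO replicate 2, and with the replicate block, group weights or the comparison's libraries alone. It was 1 without Dgcr8 KO replicate 1 or without a filter, 7 with median-of-ratios scaling and 8 with quantile normalization. Lower calls over all genes moved as well, from 31 to 75 with median-of-ratios scaling and 88 with quantile normalization. The count for the list also changed without siMbnl1/2 replicate 2, a fit with 1 siMbnl1/2 library. In siMbnl1/2 minus miR-294, 30 of the 39 were lower and 1 higher (76.9% and 2.56%, against 21.0% and 33.0% of all genes).

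**Figure D4:**
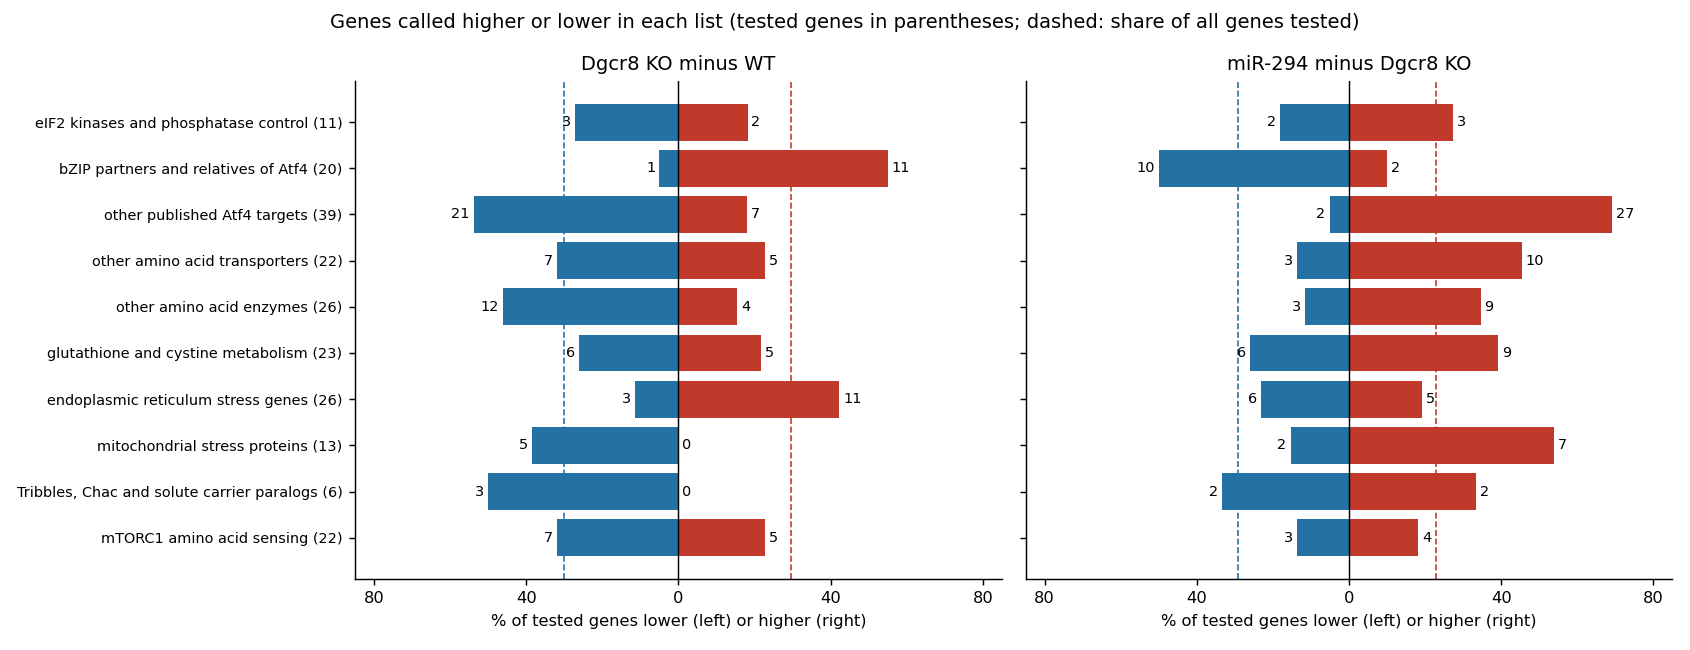
Share of the tested genes of 10 lists (number tested in parentheses) called lower (blue, left) or higher (red, right) in Dgcr8 KO minus WT and in miR-294 minus Dgcr8 KO; numbers beside bars are genes and dashed lines the shares over all genes tested. The other published ATF4 targets show 21 lower and 7 higher on the left and 27 higher and 2 lower on the right.

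Of 20 leucine zipper relatives and partners of ATF4, 11 were higher and 1 lower in Dgcr8 KO, or 55.0% and 5% against 29.6% and 30.1% of all genes. With miR-294, 10 were lower and 2 higher, or 50.0% and 10% against 29.2% and 22.9%, and in each of the 2 comparisons 8 were not called. Jdp2, a repressor that dimerizes with Jun proteins, rose from 4.33 ± 0.145 to 19.2 ± 4.10 FPKM in Dgcr8 KO (1.91 ± 0.22, adjusted p = 2.21e-04), and Jund fell from 118 ± 16.5 to 37.0 ± 2.42 with miR-294 (-1.64 ± 0.14, adjusted p = 1.39e-04). The stress factor Atf3 was the 1 that fell in Dgcr8 KO (-1.01) and among the 2 that rose with miR-294 (0.51, adjusted p = 0.0334, limma), the directions of Atf4. Its levels were low, at 5.06 and 5.62 FPKM in WT, 1.92 and 2.40 in Dgcr8 KO, and 2.81 and 4.29 with miR-294, where the replicates lay far apart.

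Of 22 tested amino acid transporters outside the 10, 5 were higher and 7 lower in Dgcr8 KO (22.7% and 31.8%, near the 29.6% and 30.1% of all genes). With miR-294, 10 were higher and 3 lower (45.5% and 13.6%, against 22.9% and 29.2%), with a median difference of -0.03. Slc38a4, a system A transporter, fell from 59.7 ± 0.0986 to 7.91 ± 0.658 FPKM in Dgcr8 KO (-2.77 ± 0.08, adjusted p = 1.72e-06), and the lysosomal exporter Slc36a1 rose by 1.36. With miR-294 the glutamate transporter Slc1a3 rose from 0.886 ± 0.0763 to 4.29 ± 0.416, and the cationic transporter Slc7a2 fell by 1.06. Among the paralogs of the 10 genes, Slc7a7, another light chain of Slc3a2, fell by 1.08 in Dgcr8 KO, from 59.8 ± 3.73 to 27.8 ± 2.69, and rose by 1.09 with miR-294, to 60.2 ± 0.229. Slc7a6, its close relative, fell by 0.81 with miR-294. Of the 6 paralogs tested 3 were lower (50.0%, against 30.1% of all genes) and none higher in Dgcr8 KO, and 2 were higher and 2 lower with miR-294 (33.3% each, against 22.9% and 29.2%).

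Of 26 other enzymes of amino acid metabolism, 12 were lower and 4 higher in Dgcr8 KO (46.2% and 15.4%, against 30.1% and 29.6% of all genes). With miR-294, 9 were higher and 3 lower (34.6% and 11.5%, against 22.9% and 29.2%). Glul, which makes glutamine from glutamate, fell from 185 ± 3.51 to 74.4 ± 0.0924 FPKM in Dgcr8 KO (-1.30 ± 0.08, adjusted p = 1.43e-05). The glycine cleavage enzyme Gldc rose by 1.24 with miR-294, and the argininosuccinate synthase Ass1 rose by 0.81 with siMbnl1/2 (55.7 ± 4.59 to 98.5 ± 1.69, adjusted p = 0.0124), the 1 enzyme of the list to pass there.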

How the data were processed

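RNA-seq of 8 libraries was used. The deposited FPKM values were made by the authors with STAR 2.5.0 and Cufflinks 2.2.1 on mm10, per the submitters' processing notes, and the annotation release and use of strand are not given in the sources used here. Values were analysed as log2(FPKM + 1). The 12786 genes reaching 1 FPKM on average were fitted with 4 group means over all 8 libraries by limma 3.58.1 (R 4.3.3, statmod 1.5.0). The fit used trended, robust variance and two-sided tests with Benjamini-Hochberg adjustment. A check on simulated data gave every group the same spread, so it did not cover the unequal spread of these groups. The low-value scale understates folds. FPKM gives no read depth, so no counting interval is given. Whether replicates came from separate cultures is not said, so each p-value reflects only the scatter of these libraries, which may be technical. The genes and lists were chosen with earlier results of these data known, and the lists overlap. Outside the 10 genes, the text names per list and comparison with Dgcr8 KO the called gene with the largest increase and decrease, the 5 genes most like Atf4 (Gm, LOC, RP, Rik and pseudogene symbols and small RNAs left out), and label checks (Dgcr8, Mbnl1, Mbnl2, cell markers). One gene that the rule names is not reported here. Strand and 3' untranslated regions came from GENCODE M21. Python 3.11.15 and matplotlib 3.10.9 were used for sequences and figures. Alternatives were another pseudocount (0.1), no filter, median-of-ratios and quantile scaling, a replicate block, group weights, the comparison's libraries alone and each library left out.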

Additional observations from a re-analysis of the deposited data

How the results depend on the processing

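Over the 15 alternatives, 561 of 600 values of called differences of the 9 genes kept their direction and their call, 39 kept the direction and lost the call, and 0 reversed. Of the 39, 21 were in siMbnl1/2 minus Dgcr8 KO, 17 in miR-294 minus WT and 1 in Dgcr8 KO minus WT. In siMbnl1/2 minus Dgcr8 KO, 2 of the 9 genes and 142 of all genes were called (111 higher, 31 lower). The counts were 0 and 61 without a filter, 0 and 33 with the replicate block, 0 and 8 with group weights, and 0 and 4 with the comparison's own libraries, and 0 to 3 and 15 to 650 without single libraries. There, median-of-ratios scaling gave 97 higher and 75 lower, and quantile normalization gave 117 and 88. In miR-294 minus WT 3390 of all genes were called, 6669 with group weights and 6311 with its own libraries, and 1242 to 4578 without single libraries, with 4 to 8 of the 9 genes called, and the split of 1508 higher and 1882 lower became 2019 and 1536 under median-of-ratios scaling. In siMbnl1/2 minus miR-294 the split of 4217 higher and 2685 lower became 3477 and 3461 after median-of-ratios scaling, or 3131 and 3382 after quantile normalization. In Dgcr8 KO minus WT only Atf5 lost its call, with a difference that stayed between 0.23 and 0.53 over the 15 alternatives. The cause of these shifts was not tested.

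Differences that had not passed changed sign in some settings. Ddit3 in Dgcr8 KO minus WT was -0.0114 with quantile normalization, and -0.0157 to 0.125 without single libraries. In siMbnl1/2 minus WT it was -0.0315 with median-of-ratios scaling and -0.0843 with quantile normalization, and -0.0326 to 0.0588 without single libraries. In siMbnl1/2 minus Dgcr8 KO, leaving out single libraries gave -0.112 to 0.0287 for Ddit3 and -0.110 to 0.0288 for Asns. Gpt2 in miR-294 minus Dgcr8 KO was -0.0627 with quantile normalization. The replicate block was run although the labels do not say that a number marks a shared day. Deviations of same-numbered libraries correlated across genes at -0.05 to 0.19 between groups. Besides Atf5 and Gpt2 with siMbnl1/2, the block ended the call of Asns in miR-294 minus WT (-0.22, adjusted p = 0.0549) and no other call of the 9 genes. The pseudocount of 0.1 changed no call of the 9 genes. The alternatives for the count of other published ATF4 targets were chosen after seeing the data.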

Other observations

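Over all genes tested, 29.6% were higher and 30.1% lower in Dgcr8 KO, and 22.9% higher and 29.2% lower with miR-294 against Dgcr8 KO. Of 26 tested genes of the Atf6 and Xbp1 arms of endoplasmic reticulum stress, 11 were higher and 3 lower in Dgcr8 KO (42.3% and 11.5%), and 5 were higher and 6 lower with miR-294 (19.2% and 23.1%). Dnajb9, a chaperone partner of BiP, stood at 7.35 ± 0.0985 FPKM (SD, n = 2) in WT, 20.04 ± 3.13 in Dgcr8 KO (difference 1.32 ± 0.12, SE, adjusted p = 7.81e-05) and 11.2 ± 0.17 with miR-294. Sec61b, a subunit of the translocation channel, fell by 0.97 in Dgcr8 KO, and Herpud1, also on the list of ATF4 targets, rose by 0.66 with miR-294. Of 13 mitochondrial stress proteins, 5 were lower (38.5%) and none higher in Dgcr8 KO, and 7 higher and 2 lower with miR-294 (53.8% and 15.4%). The chaperonin Hspe1 was at 596 ± 1.81 in WT, 319 ± 14.5 in Dgcr8 KO and 539.7 ± 2.18 with miR-294, whereas the protease Oma1 fell by 0.44 with miR-294.

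In glutathione and cystine metabolism, 5 genes were higher and 6 lower of 23 tested in Dgcr8 KO (21.7% and 26.1%, both below the shares of all genes), and 9 higher and 6 lower with miR-294 (39.1% and 26.1%). Gss, glutathione synthetase, rose from 11.6 ± 0.69 to 39.0 ± 3.02 FPKM in Dgcr8 KO (1.67 ± 0.08, adjusted p = 8.54e-06). The heme oxygenase Hmox1 fell from 129 ± 3.36 to 35.6 ± 0.564 (-1.82 ± 0.27, adjusted p = 0.00141) and was at 144 ± 1.36 with miR-294 (1.99 ± 0.27, adjusted p = 0.00135). Oplah, which recycles oxoproline, fell by 1.14 with miR-294, and the sulfiredoxin Srxn1 fell by 0.76 with siMbnl1/2 (adjusted p = 0.0124). Of 22 genes of amino acid sensing by mTORC1, 5 were higher and 7 lower in Dgcr8 KO (22.7% and 31.8%), and 4 higher and 3 lower with miR-294 (18.2% and 13.6%), none of them far above the shares of all genes. The Rag GTPase Rragd was at 4.41 ± 0.176 in WT, 22.6 ± 3.16 in Dgcr8 KO and 10.8 ± 0.249 with miR-294, and the mTORC1 inhibitor Akt1s1 at 32.8 ± 3.27, 11.7 ± 0.708 and 25.9 ± 0.444 in the same order.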
